A study of Mus musculus with 4 samples.

Results

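Transcripts of the ligands and receptors through which supporting cells of the gonad signal to germ cells were followed in the embryonic mouse testis. The set holds 7 genes, chosen by name: the ligands Kitl, Cxcl12 and Gdnf, the receptors Kit, Cxcr4 and Ret, and the co-receptor Gfra1. All 7 were found on the array, with 11 of its 41174 probes. For 10 of these, the duplicates of 1 or more stages were both well above background, so 6 of the 7 genes entered the tests among 21987 genes, and Ret did not.

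RNA came from whole gonads of wild type male embryos of the mouse line MCH, with no treatment, at 4 ages 1 day apart, from embryonic day 12.5 (written E12.5) to embryonic day 15.5 (E15.5). Each stage had 2 arrays, described by the submitters as biological duplicates, which made 8 one-colour Agilent arrays in 4 groups. The labels do not say how many embryos were pooled. Because gonads were taken whole, fewer cells of a type and less RNA per cell cannot be told apart in any value given here.

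KIT ligand, the product of Kitl, is made by supporting cells and binds the receptor tyrosine kinase KIT on germ cells, where it supports their migration and survival. The chemokine CXCL12 draws migrating primordial germ cells to the gonad through the G protein-coupled receptor CXCR4. GDNF, which Sertoli cells secrete, binds the membrane-anchored co-receptor GFRA1, and the complex activates the receptor tyrosine kinase RET, which is best known in the gonad for the upkeep of spermatogonial stem cells after birth.

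The design placed array 1 of E12.5 and E13.5 on slide 1, array 2 of both stages on slide 2, and both later stages on slide 3, which was scanned in a separate session. Differences between E13.5 and E12.5 were therefore measured within slides 1 and 2, and those between E15.5 and E14.5 within slide 3. In every other comparison stage and slide cannot be told apart. Between 60.3% and 69.8% of probes were well above background per array, and no probe of the 7 genes was saturated. Of the 13 germ cell markers, 13 were well above background on both arrays at E12.5, E13.5 and E14.5 and 11 at E15.5, and all 10 Sertoli cell markers were above it on every array.

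The stretches before the transcription start of 4 of the genes, Kit, Cxcl12, Cxcr4 and Gdnf, are given for orientation. Kit was the only member to pass the test, made on the brightest probe per gene, in a single-day step, that from E12.5 to E13.5. The probes of Cxcl12 moved by different amounts. The levels of Cxcr4 and Gdnf had the highest correlation of any 2 members compared, Ret left out (r = 0.82 over 8 arrays). RefSeq promoters on assembly GRCm38.p6 were matched for 6 of the 7 genes. Each run below is the 250 bases before the start, read 5′ to 3′ on the gene's strand, and capitals mark GGGCGG on either strand and TATAAA on the gene's own strand.
Kit, chr5:75574737-75574986, plus strand: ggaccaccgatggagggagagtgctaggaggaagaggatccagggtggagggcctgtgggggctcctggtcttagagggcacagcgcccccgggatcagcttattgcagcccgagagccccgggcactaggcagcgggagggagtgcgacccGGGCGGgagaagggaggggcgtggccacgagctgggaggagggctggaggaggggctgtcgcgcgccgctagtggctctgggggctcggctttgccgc
Cxcl12, chr6:117168285-117168534, plus strand: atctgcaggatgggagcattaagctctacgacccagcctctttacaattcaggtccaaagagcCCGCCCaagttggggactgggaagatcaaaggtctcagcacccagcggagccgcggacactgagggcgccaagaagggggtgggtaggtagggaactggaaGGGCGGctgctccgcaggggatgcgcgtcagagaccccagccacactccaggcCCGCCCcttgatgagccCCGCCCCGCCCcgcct
Cxcr4, chr1:128592300-128592549, minus strand: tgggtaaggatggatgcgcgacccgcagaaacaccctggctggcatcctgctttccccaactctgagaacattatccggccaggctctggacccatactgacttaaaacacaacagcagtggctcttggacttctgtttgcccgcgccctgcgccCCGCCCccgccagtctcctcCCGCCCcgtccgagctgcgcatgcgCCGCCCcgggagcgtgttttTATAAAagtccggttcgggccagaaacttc
Gdnf, chr15:7809798-7810047, plus strand: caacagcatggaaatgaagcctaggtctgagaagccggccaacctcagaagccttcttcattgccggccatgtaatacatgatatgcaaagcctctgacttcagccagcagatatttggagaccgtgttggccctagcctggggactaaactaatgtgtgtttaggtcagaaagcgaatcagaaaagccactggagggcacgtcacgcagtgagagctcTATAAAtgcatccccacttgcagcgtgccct

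GGGCGG, the core of the GC box, occurred 5 times before Cxcl12, 3 times before Cxcr4, 1 time before Kit and 0 times before Gdnf, against 32.7% of 32851 promoters of the same length that held at least 1. TATAAA, the TATA box, was found before Cxcr4 and before Gdnf, and 7.59% of promoters held it. CANNTG, the E-box, occurred 1 time before Gdnf and 0 times in the other 3 windows, against 66.2% of promoters. The window before Kit was 70.8% G and C, that before Gdnf 50.8%, and the median promoter 52.4%. These are matches of letters in 1 window and were not tested for any role.

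Levels below are log2 processed signals from which the 75th percentile of the same array was subtracted, so a level of 0 is that percentile and a difference of 1 is 2-fold. Levels of different probes are not compared with each other, since probes differ in brightness for the same amount of RNA. Values after ± are standard errors of limma with 2 arrays per stage, p-values are those of limma after Benjamini-Hochberg adjustment over all genes tested, and "called" means that this p was under 0.05. As the duplicates' origin is not described further, the p-values measure only the spread between these arrays.

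Kit, the receptor of KIT ligand, fell about 3-fold between E12.5 and E13.5 and was back near its E12.5 level at E15.5. Its levels were 0.91 and 0.48 on the E12.5 arrays, -0.75 and -1.05 at E13.5, -0.25 and -0.03 at E14.5, and 0.58 and 0.75 at E15.5. The arrays of E13.5 lay below all others, and those of E15.5 fell within the range of the E12.5 arrays. From E12.5 to E13.5 the level changed by -1.59 ± 0.23, which is 3.01-fold lower (adjusted p = 0.0174). The fall was of like size within each slide, -1.66 on slide 1 and -1.52 on slide 2.

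Of the 6 genes tested, each on its brightest probe, Kit was the 1 called between E12.5 and E13.5, where 3.98% of all genes were called and 1.3% were called lower. The call did not hold when any of 3 arrays was left out, with an adjusted p of 0.0666 for the first array of E12.5 and of 0.0669 and 0.116 for the first and second of E13.5, although the change stayed between -1.81 and -1.37 with any 1 array left out. It was also lost when only the arrays of E12.5 and E13.5 entered the fit (adjusted p = 0.0936) and under the normexp background correction (0.289), and with the extreme background values of that correction replaced the adjusted p was 0.00880.

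The later rise of Kit was spread over 2 days. The change was 0.76 ± 0.23 from E13.5 to E14.5 (adjusted p = 0.0776) and 0.80 ± 0.23 from E14.5 to E15.5 (adjusted p = 0.259), so neither single day passed the test, and the second of them was measured within slide 3. Over both days, a comparison added after the data were seen, Kit rose by 1.56 ± 0.23, or 2.95-fold (adjusted p = 0.00616), where 24.6% of all genes were called. That call was lost without E15.5 array 2 (adjusted p = 0.0540) and under normexp (0.0877). E15.5 differed from E12.5 by -0.03 ± 0.23 (adjusted p = 0.932). In the test over all stages Kit was called (adjusted p = 0.00797) and stayed called with any 1 array left out (0.0158 to 0.0377), but not under normexp (0.108). It was the 1 of 6 members called by that test, which called 31.1% of all genes.

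The probe of Kit was spotted 10 times on each array, as were 1 probe of Kitl and the probe of Ret. The SD over the 10 spots of Kit was between 0.038 and 0.11 on the log2 scale, well under the step between E12.5 and E13.5. Spots of 1 array share its RNA, so they show the precision of the reading and not the spread between gonads.

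**Figure D1:**
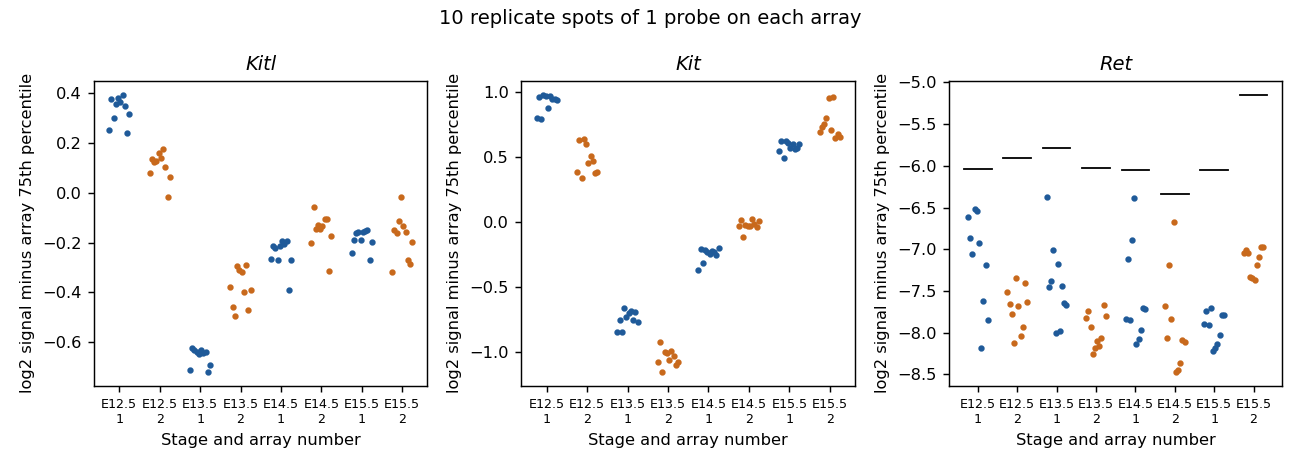
Each point is 1 of 10 spots of the probe for Kitl, Kit or Ret on 1 of 8 arrays, with stage and array number on the x axis and log2 signal minus the array's 75th percentile on the y axis, scaled separately per gene. Black bars in the Ret panel mark the dimmest probe that was well above background on that array, and 0 of 80 Ret spots were well above background, whereas the spots of Kit formed tight groups that fell from E12.5 to E13.5.

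Markers of several cell types moved over the same days, and their part in the course of Kit was not tested. The summed level of the 13 germ cell markers, on the linear scale relative to the 75th percentile, was 83.7 to 87.7 at E12.5, 139 to 150 at E13.5, 106 to 142 at E14.5 and 90.9 to 118 at E15.5. The arrays of E13.5 and E14.5 overlapped. Single markers moved in opposite directions, as the mean level of Dppa3 went from 5.30 at E12.5 to 0.90 at E15.5 and that of Mael from 2.41 to 5.28. Of these 13 markers, 5 rose and 0 fell from E12.5 to E13.5 (3.98% of all genes called), 1 rose and 7 fell from E13.5 to E14.5 (12.5%), and 3 rose and 7 fell from E12.5 to E15.5 (35%), so more of them were called lower than higher at E15.5 although their sum was not lower. The summed level of 7 erythroid markers was 134 to 151 at E12.5, 46.7 to 60.7 at E13.5, 13.3 to 19.1 at E14.5 and 2.28 to 3.32 at E15.5. At E12.5 its largest parts were the globins Hbb-y, Hbb-bh1 and Hba-x, with mean levels of 6.82, 3.90 and 3.54. From E13.5 to E15.5, 3 of the 6 tested were called lower, 0 higher and 3 were not called (24.6% of all genes called). Of those not called, Slc4a1 went from 0.03 to 0.26, Gata1 from -4.52 to -3.80 and Klf1 from -3.11 to -3.39. KIT is also a receptor of mast cells and melanocytes. The 6 mast cell markers summed to between 0.085 and 0.32 on every array. Ms4a2 was above background on no array, whereas Cma1 was on 8 and Cpa3 on 7. Cpa3 had a mean level of -6.59 at E12.5, -4.46 at E13.5 and -4.03 at E15.5, and 0 of the 3 markers tested were called in any comparison. The 5 melanocyte markers on the array summed to 2.01 to 2.32 at E12.5, 0.83 to 0.87 at E13.5, 0.35 to 0.45 at E14.5 and 0.44 to 0.55 at E15.5. Dct, well above background on 8 arrays, fell by 1.48 on the log2 scale from E12.5 to E13.5 (adjusted p = 0.0283), the day on which Kit fell, and by 1.24 in the next day (adjusted p = 0.0284), when Kit was 0.76 higher. From E12.5 to E13.5, Dct was the 1 of 3 melanocyte markers tested that was called (3.98% of all genes called). Pmel, above background on 8 arrays, had mean levels of -3.52, -3.73, -3.75 and -3.14 from E12.5 to E15.5. Mitf, above background on 4 arrays, had -4.17 at E12.5 and -4.39 at E13.5. It was at least 3.49-fold lower at E14.5 than at E13.5 (adjusted p = 0.00402). Tyr and Tyrp1 were above background on no array.

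Kitl, the ligand of KIT, moved in the same direction as its receptor from E12.5 to E13.5, by a smaller amount that did not pass the test. On its brighter probe the levels were 0.33 and 0.11 at E12.5, -0.66 and -0.38 at E13.5, -0.24 and -0.15 at E14.5, and -0.19 and -0.18 at E15.5. Both E13.5 arrays lay below all others. The change from E12.5 to E13.5 was -0.74 ± 0.19 (adjusted p = 0.0962), with -0.99 on slide 1 and -0.49 on slide 2. From E13.5 to E14.5 it was 0.32 ± 0.19 (adjusted p = 0.283), and from E14.5 to E15.5 it was 0.01 ± 0.19 (adjusted p close to 1). The E15.5 level differed from that of E12.5 by -0.40 ± 0.19 (adjusted p = 0.140).

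A second, dimmer probe of Kitl gave another course. It read -4.64 and -4.84 at E12.5 and -5.21 and -5.86 at E13.5, and was not well above background on any array of E14.5 or E15.5. Against E12.5 its signal was at least 2.74-fold lower at E14.5 and at least 1.82-fold lower at E15.5. In a fit of all probes, added after the data were seen, both differences passed the test, that at E14.5 with an adjusted p of 0.0143 (27.9% of probes called) and that at E15.5 with 0.00956 (34.4% called). The bright probe, on which Kitl was tested, showed no call in either comparison, so the fall at the later stages rests on the dim probe.

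**Figure D2:**
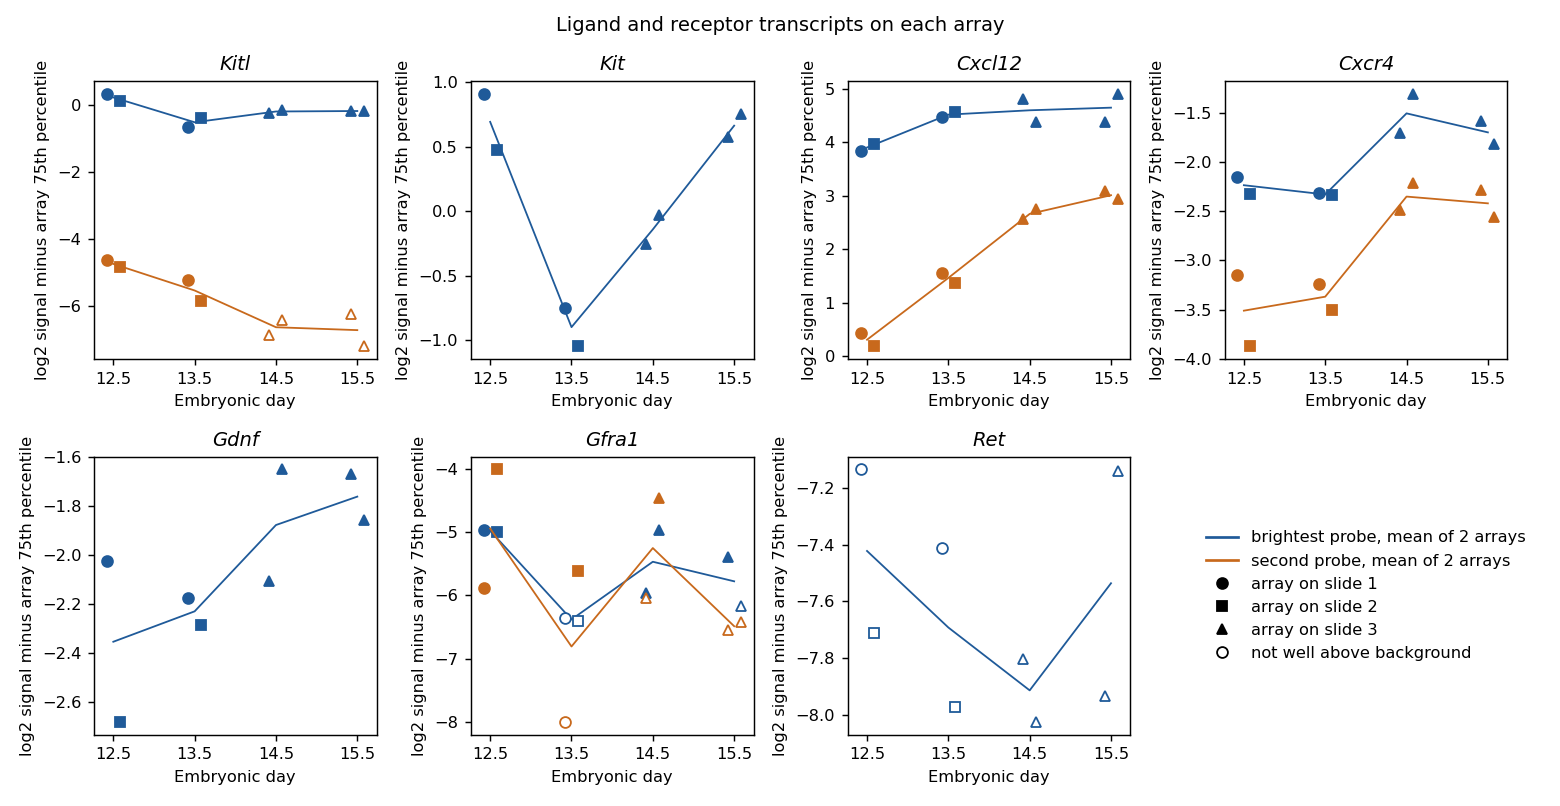
Log2 signal minus the array's 75th percentile (y axis, scaled separately per gene) is plotted against embryonic day (x axis) for each of the 7 genes. Points are arrays with their shape giving the slide, hollow points were not well above background, lines join the means of 2 arrays, and the second probe of a gene is in orange. Kit is lowest at E13.5, the second Cxcl12 probe climbs at each stage, and all Ret points are hollow.

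Cxcl12, the chemokine ligand, was bright throughout. Its first probe, for transcript NM_013655, read 3.83 and 3.98 at E12.5, 4.47 and 4.57 at E13.5, 4.82 and 4.38 at E14.5, and 4.39 and 4.91 at E15.5. The E12.5 arrays lay below all others, while the 3 later stages overlapped. The change from E12.5 to E13.5 was 0.62 ± 0.25 (adjusted p = 0.280), 0.64 on slide 1 and 0.59 on slide 2, and that from E12.5 to E15.5 was 0.75 ± 0.25 (adjusted p = 0.0596). Neither was called on this probe. From E13.5 to E14.5 and from E14.5 to E15.5 the changes were 0.08 ± 0.25 and 0.05 ± 0.25.

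The second Cxcl12 probe, for transcript NM_021704, showed a larger and steadier rise. It read 0.43 and 0.18 at E12.5, 1.55 and 1.37 at E13.5, 2.57 and 2.75 at E14.5, and 3.08 and 2.94 at E15.5, and no 2 stages overlapped. In the fit of all probes it rose by 1.16 ± 0.19 from E12.5 to E13.5 (adjusted p = 0.0307), where 3.23% of probes were called, and by 1.20 ± 0.19 from E13.5 to E14.5 (adjusted p = 0.0170), where 12.6% were. The step from E14.5 to E15.5, 0.35 ± 0.19, did not pass (adjusted p = 0.763, with 0.578% of probes called). Over the whole period the rise was 2.70 ± 0.19, or 6.52-fold (adjusted p = 0.000283). The difference between the probes, second minus first, grew by 1.96 ± 0.36 from E12.5 to E15.5, a description with no test. The accessions name different transcripts of the gene, and whether the probes read different isoforms was not tested.

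Cxcr4, the receptor of CXCL12, was level from E12.5 to E13.5 and higher at E14.5. Its first probe read -2.15 and -2.32 at E12.5, -2.32 and -2.34 at E13.5, -1.70 and -1.30 at E14.5, and -1.57 and -1.81 at E15.5. Each array of the 2 later stages lay above each array of the 2 earlier stages, a split that is also the split between slides. The change was -0.09 ± 0.21 from E12.5 to E13.5 (adjusted p = 0.919), 0.83 ± 0.21 from E13.5 to E14.5 (adjusted p = 0.0507) and -0.19 ± 0.21 from E14.5 to E15.5 (adjusted p = 0.975). Against E12.5 the level was 0.73 ± 0.21 higher at E14.5 (adjusted p = 0.0430), a comparison added after the data were seen, in which 28.6% of all genes were called, and 0.54 ± 0.21 higher at E15.5 (adjusted p = 0.0903). Of the 8 arrays, leaving out any other than E14.5 array 1 ended the call at E14.5, with adjusted p up to 0.179.

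The second Cxcr4 probe read -3.15 and -3.88 at E12.5, -3.24 and -3.50 at E13.5, -2.49 and -2.21 at E14.5, and -2.28 and -2.55 at E15.5. Its levels split at the same point as those of the first. In the fit of all probes it was 1.09 ± 0.29 higher at E15.5 than at E12.5 (adjusted p = 0.0272). Kit was the other member called between E12.5 and E14.5, lower by 0.83 on the log2 scale (adjusted p = 0.0380), a call that ended with any 1 array left out (0.0541 to 0.170).

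Endothelial cells also carry CXCR4. The 8 endothelial markers summed to 20.3 to 20.5 at E12.5, 12.7 to 12.9 at E13.5 and 9.85 to 10.3 at E15.5. From E12.5 to E15.5, 3 of the 8 fell (Kdr, Cldn5 and Tie1), 0 rose and 5 were not called, near the 35% of all genes called. From E13.5 to E14.5 the same 3 were the ones called (12.5% of all genes called), while the median change of the list was 0.14. Stromal cells can make CXCL12. The 7 markers of interstitial progenitors summed to 33.3 to 34.0 at E12.5 and 47.3 to 54.9 at E15.5. Between these stages 1 rose and 1 fell, where 35% of all genes were called. The part of either in the levels of Cxcr4 and Cxcl12 was not tested.

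Gdnf, the ligand of the GFRA1 and RET complex, did not pass the test in any comparison. It read -2.02 and -2.68 at E12.5, -2.17 and -2.28 at E13.5, -2.10 and -1.65 at E14.5, and -1.67 and -1.85 at E15.5. The E12.5 arrays were the farthest apart and spanned those of E13.5. The change was 0.12 ± 0.28 from E12.5 to E13.5 (adjusted p = 0.920), with -0.15 on slide 1 and 0.40 on slide 2, and 0.59 ± 0.28 from E12.5 to E15.5 (adjusted p = 0.142). The 10 Sertoli cell markers, the cells that secrete GDNF, summed to 168 to 180 at E12.5 and to 135 to 136 at E15.5. Of the 10, 0 were called lower and 1, Sox8, was called higher between these stages, where 35% of all genes were called. Their part in the levels of Gdnf was not tested.

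Gfra1, the co-receptor, was near the limit of measurement. Its first probe was well above background on 5 of 8 arrays, and on neither array of E13.5. It read -4.97 and -4.99 at E12.5, -6.36 and -6.40 at E13.5, -5.97 and -4.97 at E14.5, and -5.38 and -6.17 at E15.5. Since this probe has only a bound at E13.5, its signal there was at least 1.91-fold lower than at E12.5, and the fitted difference did not pass the test (adjusted p = 0.116). E14.5 was at least 1.36-fold above E13.5 (adjusted p = 0.160). The second probe was above background on 4 arrays, E13.5 array 2 among them, its changes had a standard error of 0.95, and none passed the test.

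Ret, the signalling receptor for GDNF, was not well above background on any array. Its processed signals ran from 3.57 to 10.5, below the lowest signal of a probe well above background on the same array, which lay between 13.4 and 41.7. Of its 80 spots, 0 were well above background. The array therefore gave no level for Ret at any stage, which limits the signal of this probe and does not show that the transcript was absent.

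**Figure D3:**
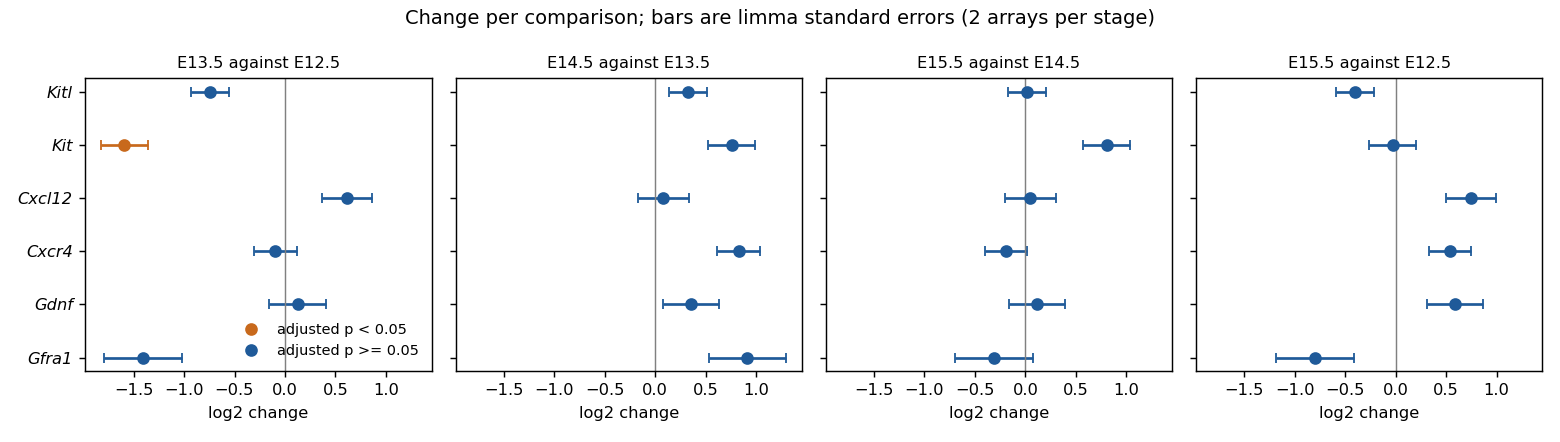
The log2 change (x axis) of each of the 6 genes tested is shown for 4 comparisons, later minus earlier stage, with bars for the limma standard error. The change of Kit from E12.5 to E13.5, -1.59 ± 0.23, is the 1 change with an adjusted p under 0.05, and the Gfra1 values that involve E13.5 rest on arrays where it was not well above background.

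Across the single-day steps, 0 of 6 members were called from E13.5 to E14.5, where limma called 12.5% of all genes, and 0 from E14.5 to E15.5, where it called 0.655%. From E12.5 to E15.5 it called 0 members against 35% of all genes. These counts rest on the brightest probe per gene. In the limma fit of all probes, the second probes of Kitl (adjusted p = 0.00956), Cxcl12 (0.000283) and Cxcr4 (0.0272) passed from E12.5 to E15.5. That of Gfra1 did not (0.246), and 34.4% of probes were called. From E13.5 to E14.5 the second Cxcl12 probe passed (0.0170, with 12.6% of probes called). On the brightest probes, an unadjusted p under 0.05 was found for 2 members from E13.5 to E14.5 (Kit and Cxcr4), 1 from E14.5 to E15.5 (Kit) and 2 from E12.5 to E15.5 (Cxcl12 and Cxcr4). Duplicates of the earlier and later stage were fully apart for 4 members from E12.5 to E13.5 (51.3% of all genes), 5 from E13.5 to E14.5, all higher at E14.5 (60% of all genes without overlap, 29.2% higher), 1 from E14.5 to E15.5 (36.4%) and 5 from E12.5 to E15.5 (74%).

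Each ligand was then set against its receptor within each array, where the scaling of the array cancels. Only the change of this difference between stages is read, not its size. Whether it varied over the stages was tested by exact permutation of the F statistic over the 105 ways to put 8 arrays into 4 pairs, so the smallest p possible is 0.00952. The p-values are adjusted over the 3 pairs computed. The 2 pairs with Ret were planned too, and could not be computed from a gene with no measured level.

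Kitl minus Kit was -0.58 and -0.37 at E12.5, 0.09 and 0.67 at E13.5, 0.01 and -0.12 at E14.5, and -0.76 and -0.93 at E15.5. Ligand relative to receptor was thus highest at E13.5, where Kit was lowest, and lowest at E15.5, and no 2 stages overlapped. It rose by 0.85 ± 0.23 from E12.5 to E13.5, by 0.67 on slide 1 and 1.03 on slide 2, and changed by -0.79 ± 0.23 from E14.5 to E15.5 within slide 3 (± for pairs is the standard error from the spread of duplicates). The exact permutation p was 0.00952, the smallest possible, and 0.0286 after adjustment over 3 pairs or 0.0476 when the 2 uncomputed pairs are counted with p = 1. With 1 array left out the adjusted p, over 3 pairs, lay between 0.0286 and 0.143 and passed the threshold only without E13.5 array 1.

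Cxcl12 minus Cxcr4 was 5.98 and 6.30 at E12.5, 6.79 and 6.91 at E13.5, 6.52 and 5.68 at E14.5, and 5.96 and 6.72 at E15.5. The duplicates of the last 2 stages were farther apart than any stage means (exact permutation p = 0.419, adjusted 0.419). With the second Cxcl12 probe the difference ran from 2.58 and 2.50 at E12.5 to 4.66 and 4.75 at E15.5, a change of 2.17 ± 0.10, so the course of this pair depends on which Cxcl12 probe is read. That second reading was chosen after its values were seen and has no test.

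Gdnf minus Gfra1 was 2.94 and 2.31 at E12.5, 4.19 and 4.12 at E13.5, 3.86 and 3.32 at E14.5, and 3.72 and 4.31 at E15.5. The Gfra1 probe used here, its first, was not well above background on either E13.5 array or on E15.5 array 2, so the values of those 3 arrays have no measured receptor level. No change of this pair between stages is therefore given, and its permutation p is not read.

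**Figure D4:**
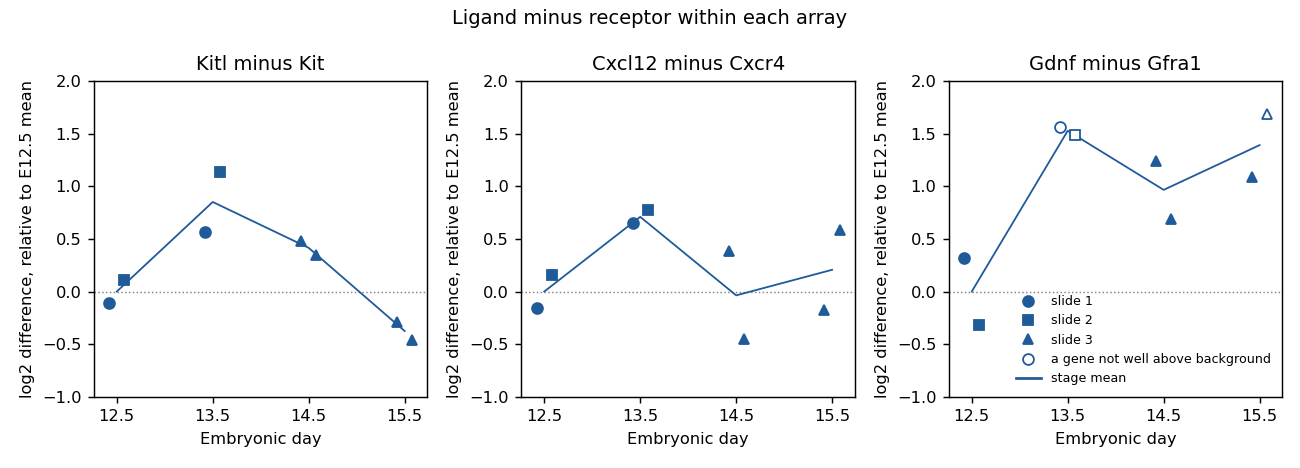
The log2 difference of ligand minus receptor within each array, relative to the mean of E12.5 (y axis), is plotted against embryonic day for 3 pairs, with 1 point per array, shapes for the slides and lines through the stage means. Kitl minus Kit peaks at E13.5 and is lowest at E15.5, whereas the duplicates of Cxcl12 minus Cxcr4 are wide apart at E14.5 and E15.5. Hollow points, in the Gdnf minus Gfra1 panel, are the 3 arrays on which Gfra1 was not well above background.

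The other genes of the 3 pathways were taken from lists of signalling partners. Of 26 genes downstream of KIT, 1 rose and 1 fell from E12.5 to E13.5, where 3.98% of all genes were called, and 4 rose and 2 fell from E12.5 to E15.5, where 35% were. Stat5a, a transcription factor that KIT can activate, rose by 1.75 ± 0.27 in the first day (adjusted p = 0.0221) and by 2.77 ± 0.27 in all (adjusted p = 0.000820). Ptpn6, the phosphatase SHP-1 that dampens KIT signalling, fell by 1.01 on the log2 scale in the first day (adjusted p = 0.0369), while its other probe gave -0.35. From E13.5 to E15.5, across slides, its tested probe rose by 1.15 (adjusted p = 0.00815, with 24.6% of all genes called), while the other probe gave -0.75. Stat3 fell by 2.23 on the log2 scale from E13.5 to E14.5 (adjusted p = 0.00791), across slides. The median change of the list from E12.5 to E15.5 was -0.07, equal to that of all genes at -0.07.

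Of 22 tested genes around CXCL12 and CXCR4, 0 were called from E12.5 to E13.5 (3.98% of all genes), and 6 rose and 3 fell from E12.5 to E15.5 (35%). Arrb2, a beta-arrestin that binds activated CXCR4, rose by 1.71 ± 0.27 (adjusted p = 0.00483). Gnai2, an inhibitory G protein subunit through which CXCR4 signals, fell by 1.49 on the log2 scale (adjusted p = 0.00829), and Gnai1 fell by 1.77 (adjusted p = 0.000751), with its 4 probes between -2.20 and -0.32. The list's median change was 0.24 against -0.07 for all genes.

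Of 26 tested genes around GDNF and RET, 1 rose and 2 fell from E12.5 to E13.5 (3.98% of all genes called), and 2 rose and 7 fell from E12.5 to E15.5 (35% of all genes called), with a median change of -0.54 against -0.07 for all genes. Nrtn, which encodes neurturin, a ligand related to GDNF, fell by 2.16 on the log2 scale (adjusted p = 0.00110). Lhx1, a transcription factor that GDNF induces in spermatogonia, fell by 5.66 on the log2 scale (adjusted p = 4.5e-05), already by 2.11 within the first day. Lhx1 is also a marker of the nephric duct. The 8 nephric duct and mesonephros markers, Lhx1 among them, summed to 5.20 to 5.85 at E12.5 and 1.93 to 2.03 at E15.5, and 1 of them rose and 3 fell. Pax2 was above background on no array of E14.5 and E15.5. Pax8 was above it on no array of E12.5, and its fitted level was 2.95-fold higher at E15.5 (adjusted p = 0.0307). The part of that tissue in the fall of Lhx1 was not tested. Dok5, an adaptor of RET, was at least 4.27-fold higher at E13.5 than at E12.5 (adjusted p = 0.00802).

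**Figure D5:**
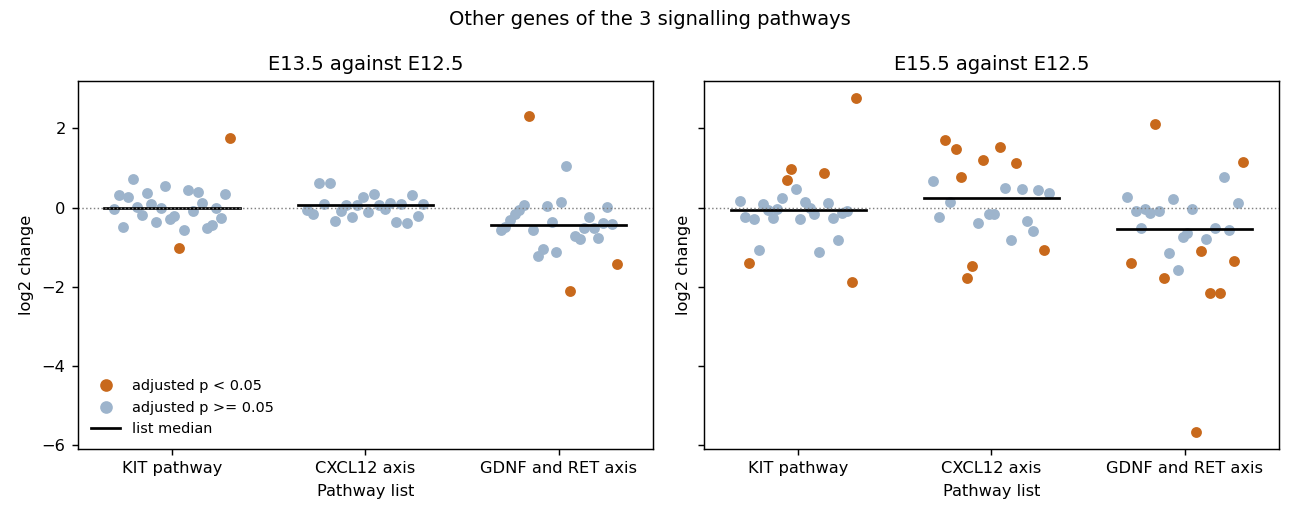
Each point is 1 gene of a pathway list, the y axis is its log2 change from E12.5 to E13.5 (left) or from E12.5 to E15.5 (right), orange points had an adjusted p under 0.05, and black bars are list medians. In the right panel the GDNF and RET list has 7 lower and 2 higher genes, with Lhx1 the lowest at -5.66.

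A short list held genes around retinoic acid and NANOS2, taken as context for Kit and Ret, 5 of 6 of them tested. From E12.5 to E13.5, 1 rose and 1 fell, and from E12.5 to E15.5, 0 rose and 4 fell, against 3.98% and 35% of all genes called. Nanos2, the RNA-binding protein of male germ cell fate, rose by 3.12 ± 0.41 from E12.5 to E13.5 (adjusted p = 0.0133), the day on which Kit fell, then fell by 2.57 on the log2 scale in the next day (adjusted p = 0.0170) and fell by 3.93 in the last (adjusted p = 0.0196). Sohlh2, a transcription factor that can act on Kit, fell by 1.27 on the log2 scale from E12.5 to E13.5 (adjusted p = 0.0164) and by 2.47 in the next day (adjusted p = 0.00402), while Kit was 0.76 higher. Cyp26b1, the retinoic acid-degrading enzyme of Sertoli cells, fell by 1.78 on the log2 scale from E12.5 to E15.5 (adjusted p = 0.000788).

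The genes with the courses most like each member were named by Pearson's r over the 8 arrays among 13474 genes with a symbol, a description that shares arrays and slides. For Kit they were Tmem131 (r = 0.982), Lypd1 (0.977) and Tnc (0.969). For Kitl they were Dapl1 (0.961), Cdv3 (0.959) and Trpm7 (0.941). For Cxcl12, on its first probe, they were Sesn1 (0.986), Fbxo31 (0.985) and Slc6a9 (0.982), and for Cxcr4 they were Fubp1 (0.987), Xbp1 (0.974) and Anln (0.970). For Gdnf they were Rad51c (0.981), Gorasp1 (0.963) and Prkag2 (0.962), and for Gfra1, with 3 arrays not well above background, they were Kif18a (0.968), Kcnip1 (0.942) and Srsf4 (0.927). Among the members, Cxcr4 and Gdnf had an r of 0.82, Kitl and Gfra1 0.80, and Kitl and Kit 0.79, whereas Cxcl12 and Cxcr4 had 0.32 and Gdnf and Gfra1 0.10.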

How the data were processed

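Scanner files of 8 one-colour Agilent arrays were used, 2 per stage. The deposited spot intensity is the processed signal, which per the file headers Agilent Feature Extraction (9.1.3.1 for E12.5 and E13.5, 9.5.3.1 for E14.5 and E15.5) corrected for background. The submitters' processing notes name version 9.5. The authors also deposited a table with 1 linear ratio per probe and stage, without separate arrays, whose centring is not given in the sources used here. It served to check directions. On the tested probes these were opposite from E14.5 to E15.5 for Kitl (-0.23 in that table against 0.01), Cxcl12 (-0.20 against 0.05) and Gdnf (-0.13 against 0.12). From E13.5 to E15.5 they were opposite for Cxcl12 (-0.07 against 0.13). None of these changes was called. The median change of all genes from E14.5 to E15.5 was -0.23 in that table and 0.01 here.

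Log2 signals were averaged over the spots of a probe, and the array's 75th percentile was subtracted. Of 41174 probes, 28189 well above background on both arrays of a stage were kept. The brightest probe per gene, 21987 in all, entered 1 limma fit (limma 3.58.1, R 4.3.3) with a mean per stage, 4 residual and 2.57 prior degrees of freedom, and Benjamini-Hochberg adjustment. The script was tested on simulated data. Probes were named through RefSeq accessions: 22951 had 1 symbol, 0 several and 18223 none. For a stage with no array above background, the fold is a bound that sets each dim array at the higher of its own value and the lowest signal well above background. The number of arrays limits the precision.

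The members and lists were chosen with earlier results of these data known. Named from each pathway list were up to 3 called genes of largest change per direction and comparison, of which a selection is given. Added after seeing the data were the 2-day comparisons, the fit of all probes, and normexp with extreme background values replaced. Normexp used the median signal in place of the mean signal.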

Additional observations from a re-analysis of the deposited data

How the results depend on the processing

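With 1 array left out, the members called numbered 0 to 1 from E12.5 to E13.5, E12.5 to E14.5 and E13.5 to E15.5, 0 to 0 in the other comparisons, and 1 to 3 over all stages. The E12.5 to E15.5 change lay between -0.48 and -0.27 for Kitl minus Kit and between -0.17 and 0.59 for Cxcl12 minus Cxcr4 (below 0 without E15.5 array 2). That of Gdnf minus Gfra1 is not given, since Gfra1 had no measured level on 3 arrays. Changes of single genes that spanned 0 were those of Gdnf from E12.5 to E13.5 (-0.20 to 0.45), Cxcl12 from E13.5 to E14.5 (-0.14 to 0.30) and E13.5 to E15.5 (-0.13 to 0.39), Kit from E12.5 to E15.5 (-0.25 to 0.19), Gfra1 from E12.5 to E14.5 (-0.99 to 0.010) and, from E14.5 to E15.5, Kitl (-0.032 to 0.060), Cxcl12 (-0.21 to 0.31), Cxcr4 (-0.39 to 0.0070), Gdnf (-0.11 to 0.34) and Gfra1 (-0.81 to 0.19), none of them called. With slide as a replicate block, possible for the 2 comparisons within slides, the adjusted p of Kit from E12.5 to E13.5 was 0.0128 and no call changed. Under normexp 0 members were called in every comparison, and directions turned for Cxcr4 (0.54) and Gfra1 (0.88) from E12.5 to E13.5, Gdnf (-0.45) and Gfra1 (-1.44) from E13.5 to E14.5, and Cxcr4 (-0.084), Gdnf (-0.32) and Gfra1 (-1.60) from E13.5 to E15.5. 1 array, E13.5 array 2, held extreme background values. With 3 such spots replaced, 1 member was called from E13.5 to E14.5, 2 from E12.5 to E15.5, 4 from E12.5 to E14.5 and 4 over all stages, Gfra1 turned (-0.21 from E13.5 to E14.5, -0.37 from E13.5 to E15.5), and Gdnf minus Gfra1 (1.12) crossed the threshold, a p that is not read because Gfra1 had no measured level on 3 arrays. Scaled to array medians, 1 member was called from E12.5 to E14.5, and from E14.5 to E15.5 Kitl (-0.13), Cxcl12 (-0.095) and Gdnf (-0.028) turned. Quantile normalization called 1 from E13.5 to E14.5, 1 from E12.5 to E15.5 and 3 over all stages. Without a filter 0 were called from E12.5 to E14.5. With probes above background on all arrays 1 was called from E13.5 to E14.5, 1 from E12.5 to E15.5 and 2 over all stages. With the mean of all probes of a gene 2 were called from E12.5 to E13.5, 3 to E15.5, 4 to E14.5, 2 from E13.5 to E15.5 and 4 over all stages, and Cxcr4 (0.024 from E12.5 to E13.5) and Kitl (-0.39 from E13.5 to E14.5, -0.036 from E14.5 to E15.5, -0.42 from E13.5 to E15.5) turned. With only the arrays compared 0 were called from E12.5 to E13.5 and from E12.5 to E14.5. The causes were not tested. The share of all genes called is not given for these other settings, so their counts of members are not set against it. In the main fit that share was 3.98% from E12.5 to E13.5, 12.5% from E13.5 to E14.5 and 28.6% from E12.5 to E14.5. It was 24.6% from E13.5 to E15.5, 35% from E12.5 to E15.5 and 31.1% over all stages. The 2 pairs with Ret were not run. Signal over background limits Gfra1, the second Kitl probe and Ret.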
